A study of Homo sapiens with 9 samples.

Results

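The genes described here are 38 gene symbols of glucose metabolism and the response to low oxygen. They cover glucose transport, glycolysis, lactate handling, the pentose phosphate branch, and the hypoxia-inducible factor HIF1A with its regulators and targets. They were taken by symbol from a deposited table of 34643 genes, in which they occupied 39 rows because ALDOA was listed under 2 Ensembl identifiers. Levels are in FPKM, which are fragments scaled to the length of the gene and to the total of the library. A gene was tested where 3 or more of the 9 libraries reached an FPKM of 1. Of the 38 symbols 34 passed, each with 1 row, among 13692 tested genes. ENO2, PDK1, EGLN3 and ADM did not pass, and neither did the second ALDOA row.

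The libraries were poly(A)-enriched RNA of THP-1 cells labelled as wild type, a line grown from a human monocytic leukaemia. All cells were first primed with the phorbol ester PMA at 500 nM for 4 h and then rested for 24 h, which pushes this line towards a macrophage state. The group called LPS+PD (replicates 7 to 9) received 1 µg/mL LPS, the bacterial endotoxin sensed by TLR4, together with 10 µM PD, which the series title gives as panaxadiol. The LPS group (replicates 4 to 6) received that dose of LPS alone, and the control group (replicates 1 to 3) received neither. No group received PD alone, so the PD comparison describes PD on top of LPS. How long the cells were exposed, and in which vehicle, the labels do not say. They also name no separate cultures behind the replicates, so that a p-value here reflects only how far these libraries spread, and this may be technical.

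Glycolysis splits glucose to pyruvate in the cytosol, and lactate dehydrogenase turns pyruvate to lactate, which leaves the cell through monocarboxylate transporters. The pentose phosphate branch leaves glycolysis at glucose phosphate and yields NADPH and ribose phosphate. HIF1A is a transcription factor whose protein is marked for destruction by the prolyl hydroxylases EGLN1, EGLN2 and EGLN3 when oxygen is plentiful, and many of its targets are glycolytic genes. Macrophages stimulated with LPS are known for raised glycolysis and for HIF1A activity in normal oxygen.

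The depth implied by the FPKM values ranged from 15641305 to 17875192 fragments per library. Of 9 monocyte and macrophage markers 8 reached an FPKM of 1 in a library. The exception was CD68, which stayed between 0.0852 and 0.310 FPKM. The summed level of the 9 markers was 735 to 757 FPKM in LPS+PD, 737 to 753 in LPS and 385 to 398 in control libraries. The near-equal sums with LPS cover opposite moves, since in LPS+PD against LPS the mean level of LYZ was 1.91 times and of ITGAM 1.62 times as high, whereas CD14 stood at 0.287, CSF1R at 0.525 and FCGR1A at 0.619 times. The 4 markers of myeloid progenitors (MPO, PRTN3, ELANE and AZU1) summed to 1847 to 1882 FPKM in LPS+PD, 1219 to 1311 in LPS and 4175 to 4662 in control libraries. The macrophage sum was lower in control than in the other libraries, and the progenitor sum was higher there. The progenitor sum also differed between LPS+PD and LPS. The macrophage markers did not all move with their sum. CD14, CSF1R, ITGAM, SPI1, FCGR1A and CYBB were higher in LPS than in control, with CYBB means of 132.7 and 2.58 FPKM. CD33 was lower in LPS than in control, with means of 11.4 and 14.8 FPKM, and the LYZ libraries overlapped. In LPS+PD against control, CD33 and FCGR1A were lower, and CD14, LYZ, CSF1R, ITGAM, SPI1 and CYBB were higher. The part of either sum in the results was not tested. None of 7 lung epithelial markers reached an FPKM of 1 in any library, and EPCAM, a general epithelial marker, had at most 1 fragment. Their sum was nonetheless 0.681 to 1.17 FPKM in LPS+PD, 0.930 to 1.10 in LPS and 0.0454 to 0.125 in control libraries. In the LPS+PD and LPS libraries most of it was KRT7, a keratin, with 43 to 73 fragments in LPS+PD, 47 to 54 in LPS and 0 to 1 in control libraries. CDH1 had 4 to 12 fragments in LPS+PD, 20 to 35 in LPS and 0 to 2 in control libraries. Among 5 fibroblast and endothelial markers only PECAM1 and DCN reached an FPKM of 1. PECAM1 did so in every library, with 46.7 to 47.4 FPKM in LPS+PD, 52.8 to 55.0 in LPS and 34.2 to 35.2 in control libraries. DCN had 63 to 89 fragments in LPS+PD, 217 to 280 in LPS and 0 to 1 in control libraries.

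Most of the set was higher in LPS than in control libraries, and 13 members were lower in LPS+PD than in LPS libraries. In LPS against control, 26 of the 34 tested members were higher, 3 were lower and 5 were not called (limma on log2(FPKM + 1), adjusted p below 0.05). Over all tested genes 66.2% were called in this comparison, 26.4% as higher and 39.7% as lower, so rises were far more frequent among the members than among all genes. The members were chosen with earlier results of these data known, and how far that choice set this excess was not tested. The 26 include SLC2A3, PFKM and ANKRD37, with control means of 0.473, 0.971 and 0.381 FPKM. These genes passed the filter through the libraries given LPS, where they are higher, so their rises add no independent support. The median log2 fold change was 0.45 over the members and -0.08 over all tested genes. On the scale of log2(FPKM + 1), PKM, VEGFA, SLC16A3, SLC2A3, HK1 and HK2 rose the most, each by more than 1. That scale understates changes of low genes. By the ratio of mean FPKM, SLC2A3 (5.87), VEGFA (5.20) and ANKRD37 (3.77) stood above PKM (3.47). HK3, PDK3 and EGLN1 were the 3 members that fell.

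In LPS+PD against LPS, 13 members fell and 7 rose, with 14 not called. The background was 36.8% of all tested genes called, 23.8% as higher and 13.0% as lower. The members' rises, at 7 of 34, were thus near the background, and their falls were well above it. The same limit holds here, since the members were chosen with earlier results known. The median log2 fold change was -0.08 over the members, against 0.07 over all tested genes. Those that fell were SLC2A1, SLC2A3, HK1, HK2, PFKFB3, PGK1, PKM, LDHA, SLC16A3, HIF1A, BNIP3, P4HA1 and NDRG1, and those that rose were HK3, PFKP, LDHB, PDK3, EGLN1, TKT and TALDO1. With median-of-ratios scaling between libraries, 19 members fell and 2 rose, the 2 being HK3 and EGLN1, while all tested genes split into 1929 higher and 2582 lower, against 3259 higher and 1778 lower in the deposited scaling. Median-of-ratios scaling added falls of PFKFB4, ALDOC, TPI1, GAPDH, PGAM1 and ENO1. With that scaling the log2 fold changes of PFKP, LDHB, TKT and TALDO1 shrank to between 0.0047 and 0.08, while that of PDK3 was 0.27 and missed the threshold (adjusted p = 0.0553). In LPS+PD against control, 25 members were higher, 3 were lower and 6 were not called, with 54.7% of all genes called, 26.0% as higher and 28.7% as lower. The 25 again include SLC2A3, PFKM and ANKRD37, which passed the filter through the libraries given LPS. These comparisons share libraries pairwise, so each is given with its own values. In bulk RNA a change in the share of cells of one kind and a change in RNA per cell cannot be told apart.

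**Figure D1:**
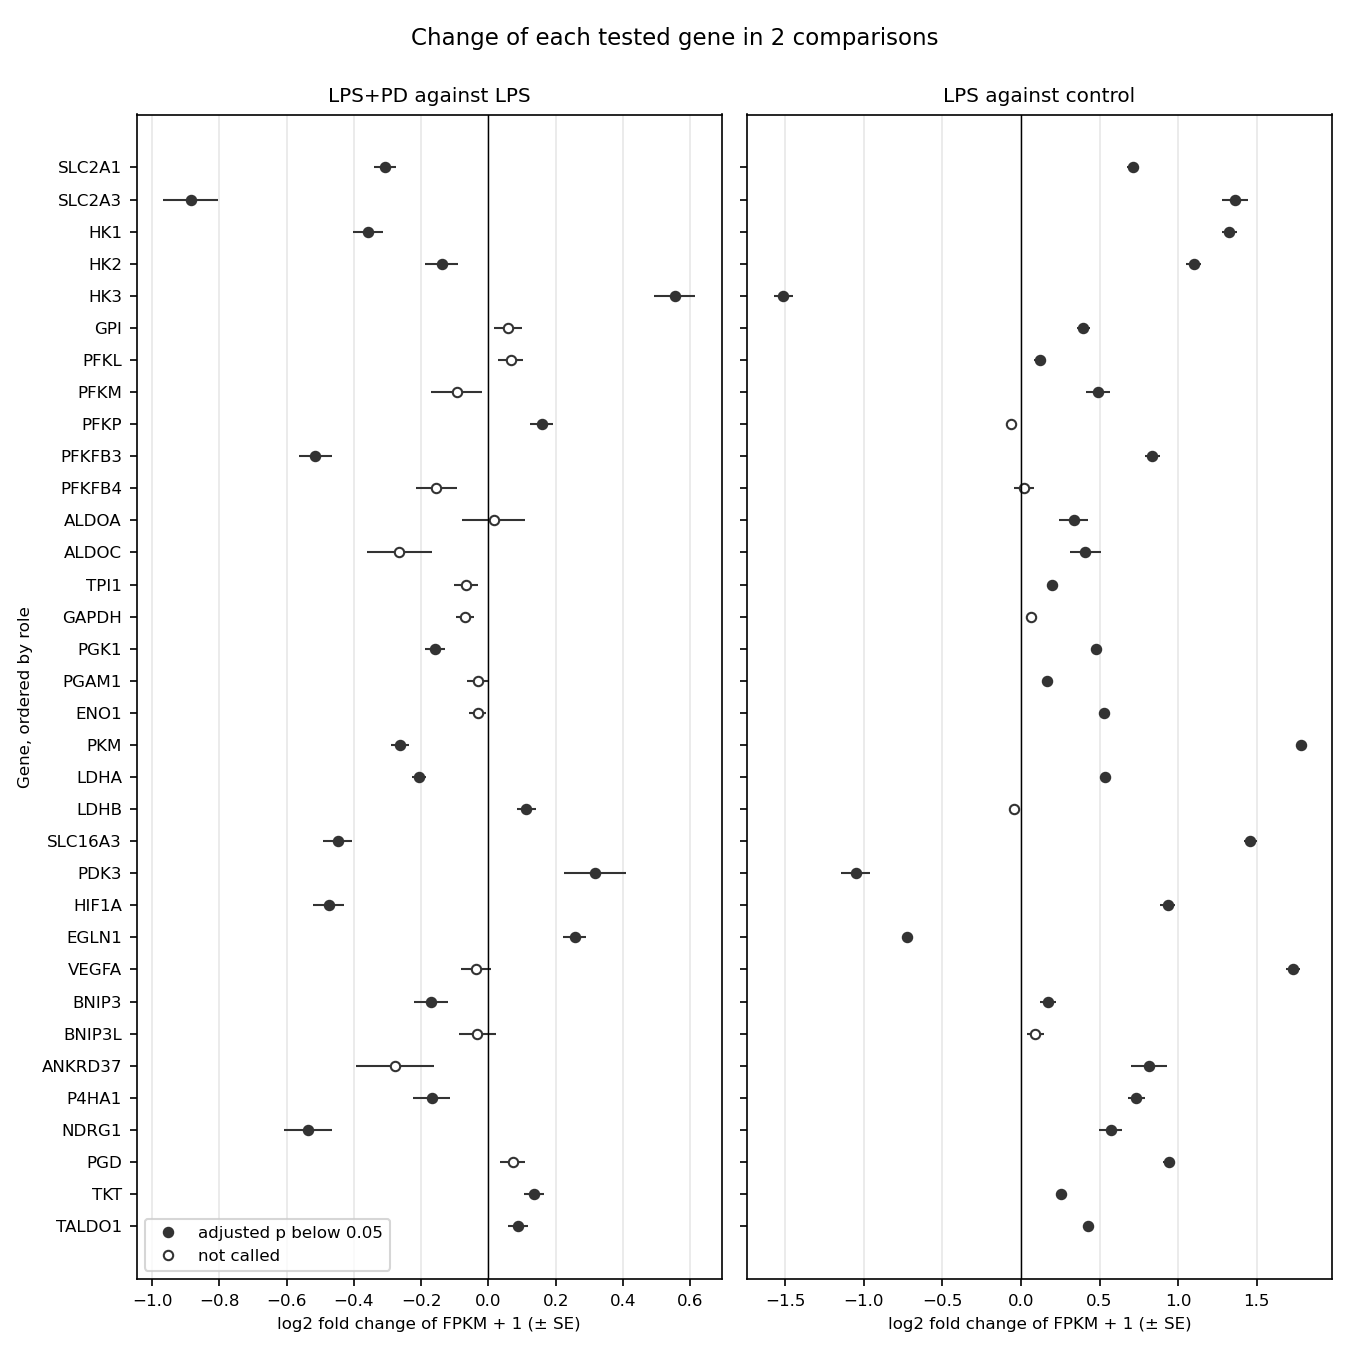
Log2 fold change of FPKM + 1 with its standard error for each of the 34 tested genes, in LPS+PD against LPS (left) and in LPS against control (right), with filled points for an adjusted p below 0.05. On the right 26 genes were called above 0 and 3 below, and on the left 7 above and 13 below. The LPS libraries enter both panels, and the panels have different scales.

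The promoter windows below, picked after the values were seen, show 3 glycolytic members that rose with LPS (LDHA, PGK1 and PKM) and 2 members that fell (EGLN1 and HK3), because HIF1A binds a short core, ACGTG or GCGTG, in its targets. Each window runs from 250 bases before to 50 bases after a transcript start (RefSeq, GRCh38.p14), is read 5′ to 3′ on the strand of the gene, and has either core, on either strand, in capitals. A core on the opposite strand appears as CACGT or CACGC. LDHA has 2 windows in this table, of which the one with the lower start is shown.
LDHA (chr11:18394313-18394612, plus strand): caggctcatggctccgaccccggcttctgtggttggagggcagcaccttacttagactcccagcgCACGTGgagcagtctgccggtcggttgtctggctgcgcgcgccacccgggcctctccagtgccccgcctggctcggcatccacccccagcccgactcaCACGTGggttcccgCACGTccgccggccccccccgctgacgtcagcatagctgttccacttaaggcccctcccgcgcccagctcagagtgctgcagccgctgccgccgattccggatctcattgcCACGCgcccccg
PGK1 (chrX:78103998-78104297, plus strand): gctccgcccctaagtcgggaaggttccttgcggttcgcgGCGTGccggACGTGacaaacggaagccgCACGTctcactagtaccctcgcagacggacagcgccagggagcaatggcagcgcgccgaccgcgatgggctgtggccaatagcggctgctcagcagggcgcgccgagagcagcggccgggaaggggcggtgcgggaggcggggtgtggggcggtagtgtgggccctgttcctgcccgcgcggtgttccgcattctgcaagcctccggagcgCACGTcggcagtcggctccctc
PKM (chr15:72231141-72231440, minus strand): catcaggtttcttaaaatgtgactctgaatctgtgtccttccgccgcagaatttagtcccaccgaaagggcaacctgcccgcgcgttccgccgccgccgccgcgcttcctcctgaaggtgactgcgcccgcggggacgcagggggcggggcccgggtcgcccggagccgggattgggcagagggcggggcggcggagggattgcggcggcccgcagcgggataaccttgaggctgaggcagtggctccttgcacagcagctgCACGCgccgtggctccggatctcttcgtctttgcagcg
EGLN1 (chr1:231422238-231422537, minus strand): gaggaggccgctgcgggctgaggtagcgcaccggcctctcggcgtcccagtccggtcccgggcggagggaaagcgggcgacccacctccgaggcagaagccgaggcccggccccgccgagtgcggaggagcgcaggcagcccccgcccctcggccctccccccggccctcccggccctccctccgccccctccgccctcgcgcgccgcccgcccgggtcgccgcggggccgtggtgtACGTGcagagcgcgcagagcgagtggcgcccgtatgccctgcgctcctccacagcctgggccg
HK3 (chr5:176899297-176899596, minus strand): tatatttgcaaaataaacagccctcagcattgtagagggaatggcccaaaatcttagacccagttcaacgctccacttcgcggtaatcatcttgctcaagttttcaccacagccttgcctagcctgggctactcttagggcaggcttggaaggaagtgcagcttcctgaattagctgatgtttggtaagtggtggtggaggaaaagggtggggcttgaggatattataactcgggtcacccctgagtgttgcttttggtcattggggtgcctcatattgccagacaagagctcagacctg
LDHA, whose product makes lactate, held 5 matches to ACGTG and 1 to GCGTG over both strands. It has 2 copies of the palindrome CACGTG, an E-box core bound by other factors, and each copy counts as an ACGTG match on both strands. PGK1 held 3 and 1, PKM held 1 GCGTG, EGLN1 held 1 ACGTG and HK3 held neither. PDK3, the other member that fell with LPS, held 1 ACGTG and 1 GCGTG in its window, which is not shown. PGAM1, TKT and TALDO1, which rose with LPS, held neither core in their windows. Of the 38 symbols 34 had windows in this table, 61 in all, and those of 1 gene can overlap. ACGTG was present in 39.3% of the 61 windows and in 23% of 22198 windows of protein-coding genes. GCGTG was present in 39.3% and 43%, either core in 63.9% and 54.7%, and CACGTG, which contains ACGTG, in 13.1% and 8.34%. A match describes these letters in this window, and nothing here measured binding.

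The glucose transporters of the set rose with LPS and were lower when PD was added. SLC2A1 (GLUT1, the widely expressed glucose importer, chromosome 1, 42925375 to 42959176, minus strand) had 55.4, 54.8 and 57.8 FPKM in LPS+PD libraries, 69.0, 67.6 and 72.1 in LPS libraries and 42.8, 42.4 and 41.2 in control libraries. The 3 groups did not overlap, with LPS highest and control lowest. SLC2A1 fell by 0.31 ± 0.03 (SE) on the log2 scale in LPS+PD against LPS (limma adjusted p = 9.42e-05) and rose by 0.71 ± 0.03 in LPS against control (adjusted p = 5.98e-08). SLC2A3 (GLUT3, a high-affinity importer, chromosome 12, 7919230 to 7936275, minus strand) was far less abundant, at 1.02, 1.01 and 1.10 FPKM in LPS+PD libraries, 2.80, 2.68 and 2.85 in LPS libraries and 0.571, 0.343 and 0.505 in control libraries. Its mean level with PD was 0.376 times that with LPS alone, the lowest ratio among the tested members in that comparison. The log2 difference in FPKM + 1 was -0.89 ± 0.08 (adjusted p = 3.94e-05), and in LPS against control it was 1.36 ± 0.08 (adjusted p = 3.86e-07). In control it was below the FPKM of 1 that the test required, and it passed through the other groups. SLC2A3 has a near-identical copy, SLC2A14, so its level is uncertain where reads fit both.

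Outside the set, 2 other sugar transporters took a large share of transporter RNA. SLC2A6 (GLUT6) averaged 66.7 ± 2.84 FPKM in LPS+PD libraries, 80.5 ± 2.504 in LPS libraries and 6.01 ± 0.346 in control libraries (SD, n = 3 each). SLC2A5 (GLUT5, a fructose transporter) averaged 21.7 ± 0.128, 19.4 ± 0.456 and 31.6 ± 0.728 FPKM in LPS+PD, LPS and control libraries. Of the summed FPKM of SLC2A1, SLC2A3, SLC2A5, SLC2A6 and SLC2A8, SLC2A1 held 37.9% to 38.1% in LPS+PD, 38.8% to 41.1% in LPS and 50.3% to 52.0% in control libraries. SLC2A6 held 45.3% in LPS+PD, 46.3% in LPS and 7.33% in control libraries. SLC2A5 held 14.7% in LPS+PD, 11.2% in LPS and 38.6% in control libraries. SLC2A1 thus rose with LPS while its share of the transporters was lower than in control. These shares were described and not tested.

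The hexokinases, which trap glucose by phosphorylation, changed places. HK1, the widely expressed form bound to mitochondria (chromosome 10, 69269984 to 69401884, plus strand), had 15.1, 17.2 and 16.3 FPKM in LPS+PD libraries, 21.7, 20.5 and 20.9 in LPS libraries and 7.78, 7.90 and 7.66 in control libraries. HK3, a form found in myeloid cells (chromosome 5, 176880869 to 176899332, minus strand), ran the other way, with 7.26, 7.95 and 6.96 FPKM in LPS+PD libraries, 5.02, 4.60 and 4.52 in LPS libraries and 14.4, 16.3 and 15.3 in control libraries. For both genes the 3 groups were fully separated, with LPS+PD between the other two. HK1 fell by 0.36 ± 0.05 in LPS+PD against LPS (limma adjusted p = 0.000301), and its log2 fold change was 1.33 ± 0.05 in LPS against control (adjusted p = 7.46e-09). HK3 rose by 0.55 ± 0.06 in LPS+PD against LPS (adjusted p = 0.000113) and fell by 1.51 ± 0.06 in LPS against control (adjusted p = 2.18e-08). Against control, LPS+PD cells still had a log2 fold change of 0.97 for HK1 (adjusted p = 1.40e-07) and of -0.96 for HK3 (adjusted p = 1.03e-06).

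HK2, the inducible hexokinase, averaged 7.33 ± 0.462 FPKM in LPS+PD libraries, 8.17 ± 0.128 in LPS libraries and 3.28 ± 0.108 in control libraries (SD, n = 3 each). It rose by 1.10 ± 0.05 in LPS against control (limma adjusted p = 4.25e-08). Its fall of 0.14 ± 0.05 in LPS+PD against LPS only just passed (adjusted p = 0.0497) and did not pass under 11 of 17 alternatives, among them leaving out any 1 control library, any 1 LPS library, or LPS+PD replicate 7 or 8, with log2 fold changes of -0.21 to -0.10 and an adjusted p of up to 0.162. Summed over HK1, HK2, HK3 and HKDC1, hexokinase RNA was 30.9 ± 1.67 FPKM in LPS+PD libraries, 33.9 ± 0.876 in LPS libraries and 26.4 ± 0.926 in control libraries. HK1 held 52.3% of that sum in LPS+PD, 62.0% in LPS and 29.5% in control libraries. HK3 held 23.9% in LPS+PD, 13.9% in LPS and 58.0% in control libraries. The ratio of HK1 to HK3 was 2.19 ± 0.129 in LPS+PD, 4.47 ± 0.156 in LPS and 0.509 ± 0.0276 in control libraries. GPI, which isomerises glucose phosphate to fructose phosphate, averaged 23.8 FPKM in LPS+PD, 22.8 in LPS and 17.1 in control libraries. It rose with LPS (0.40 ± 0.04, adjusted p = 2.20e-05), and its LPS+PD and LPS libraries overlapped (log2 fold change 0.06 ± 0.04, adjusted p = 0.303).

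**Figure D2:**
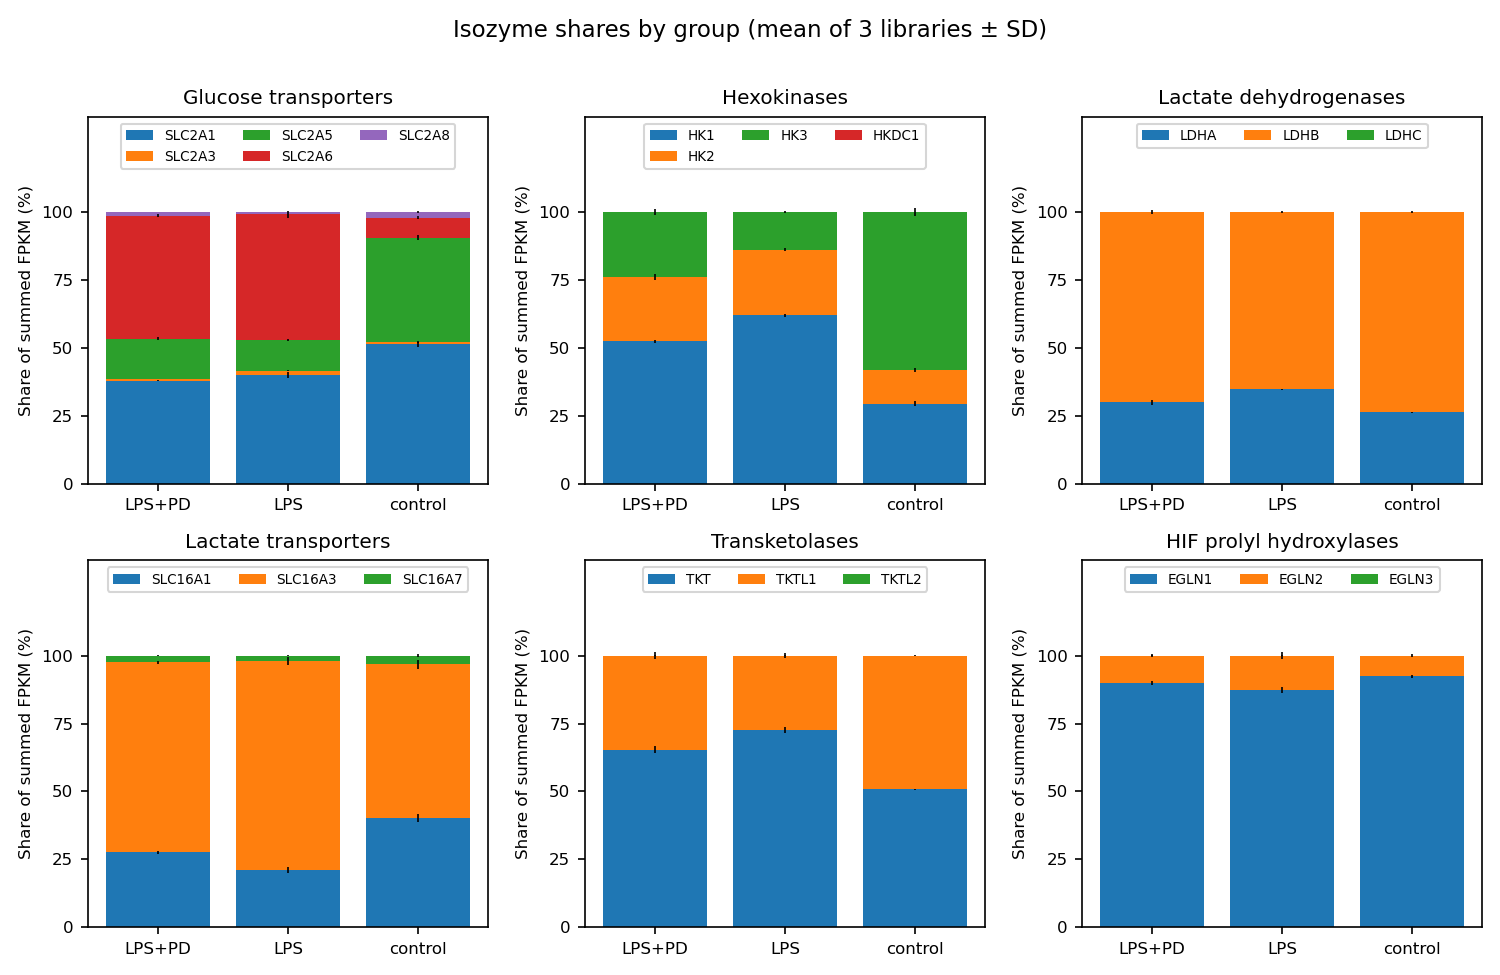
Share of each isozyme in the summed FPKM of its family, in percent, as stacked bars of the mean of 3 libraries with SD, for LPS+PD, LPS and control. HK3 takes 23.9% in LPS+PD, 13.9% in LPS and 58.0% in control, and SLC2A6 takes 45.3% in LPS+PD, 46.3% in LPS and 7.33% in control.

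Phosphofructokinase makes the committed step of glycolysis. The product of PFKFB3 makes a regulatory fructose bisphosphate, not the glycolytic intermediate, and this compound activates phosphofructokinase. PFKFB3 (chromosome 10, 6144934 to 6254644, plus strand) had 10.1, 9.70 and 10.7 FPKM in LPS+PD libraries, 14.1, 15.0 and 15.8 in LPS libraries and 8.12, 7.72 and 7.94 in control libraries. The groups did not overlap, and the LPS+PD libraries lay closer to control than to LPS. Its level fell by 0.51 ± 0.05 in LPS+PD against LPS (limma adjusted p = 5.38e-05) and rose by 0.84 ± 0.05 in LPS against control (adjusted p = 3.75e-07). Its relative PFKFB4 had 2.22, 2.23 and 2.40 FPKM in LPS+PD libraries, 2.87, 2.51 and 2.58 in LPS libraries and 2.63, 2.72 and 2.45 in control libraries, and was called in none of the 3 comparisons. In LPS+PD against LPS its libraries did not overlap (log2 fold change -0.15 ± 0.06, adjusted p = 0.0795). PFKFB4 was called lower there with median-of-ratios scaling (-0.22, adjusted p = 0.0243), quantile normalization (-0.20, adjusted p = 0.0335) or no intensity trend (adjusted p = 0.0455). PFKFB3 held 77.4% of the summed FPKM of the 4 PFKFB genes in LPS+PD, 82.2% in LPS and 70.6% in control libraries.

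Of the phosphofructokinase subunits, PFKP and PFKL were the abundant ones. PFKP averaged 42.8 ± 1.75 FPKM in LPS+PD libraries, 38.2 ± 0.128 in LPS libraries and 39.9 ± 1.12 in control libraries (SD, n = 3 each). It rose by 0.16 ± 0.03 in LPS+PD against LPS (limma adjusted p = 0.00576), but with median-of-ratios scaling this was 0.08 (adjusted p = 0.114, the highest over the alternatives). Its rise of 0.10 in LPS+PD against control (adjusted p = 0.0358) did not pass in 9 of 17 alternatives, among them leaving out control replicate 2 or 3, LPS replicate 5 or LPS+PD replicate 7 or 9 (log2 fold change 0.01 to 0.15, adjusted p up to 0.828). PFKL averaged 32.1 FPKM in LPS+PD, 30.6 in LPS and 28.1 in control libraries. Its rise of 0.12 ± 0.04 in LPS against control (adjusted p = 0.0160) was 0.10 without control replicate 1 (adjusted p = 0.0609) and 0.11 without LPS replicate 6 (adjusted p = 0.0534), with adjusted p of 0.000415 to 0.349 over the alternatives. PFKM, the muscle subunit, stood at 1.59 FPKM in LPS+PD, 1.76 in LPS and 0.971 in control libraries and rose by 0.49 ± 0.08 with LPS (adjusted p = 0.000360). Its control libraries had 0.923, 1.005 and 0.986 FPKM, so PFKM passed the filter through the libraries given LPS, where it is higher.

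**Figure D3:**
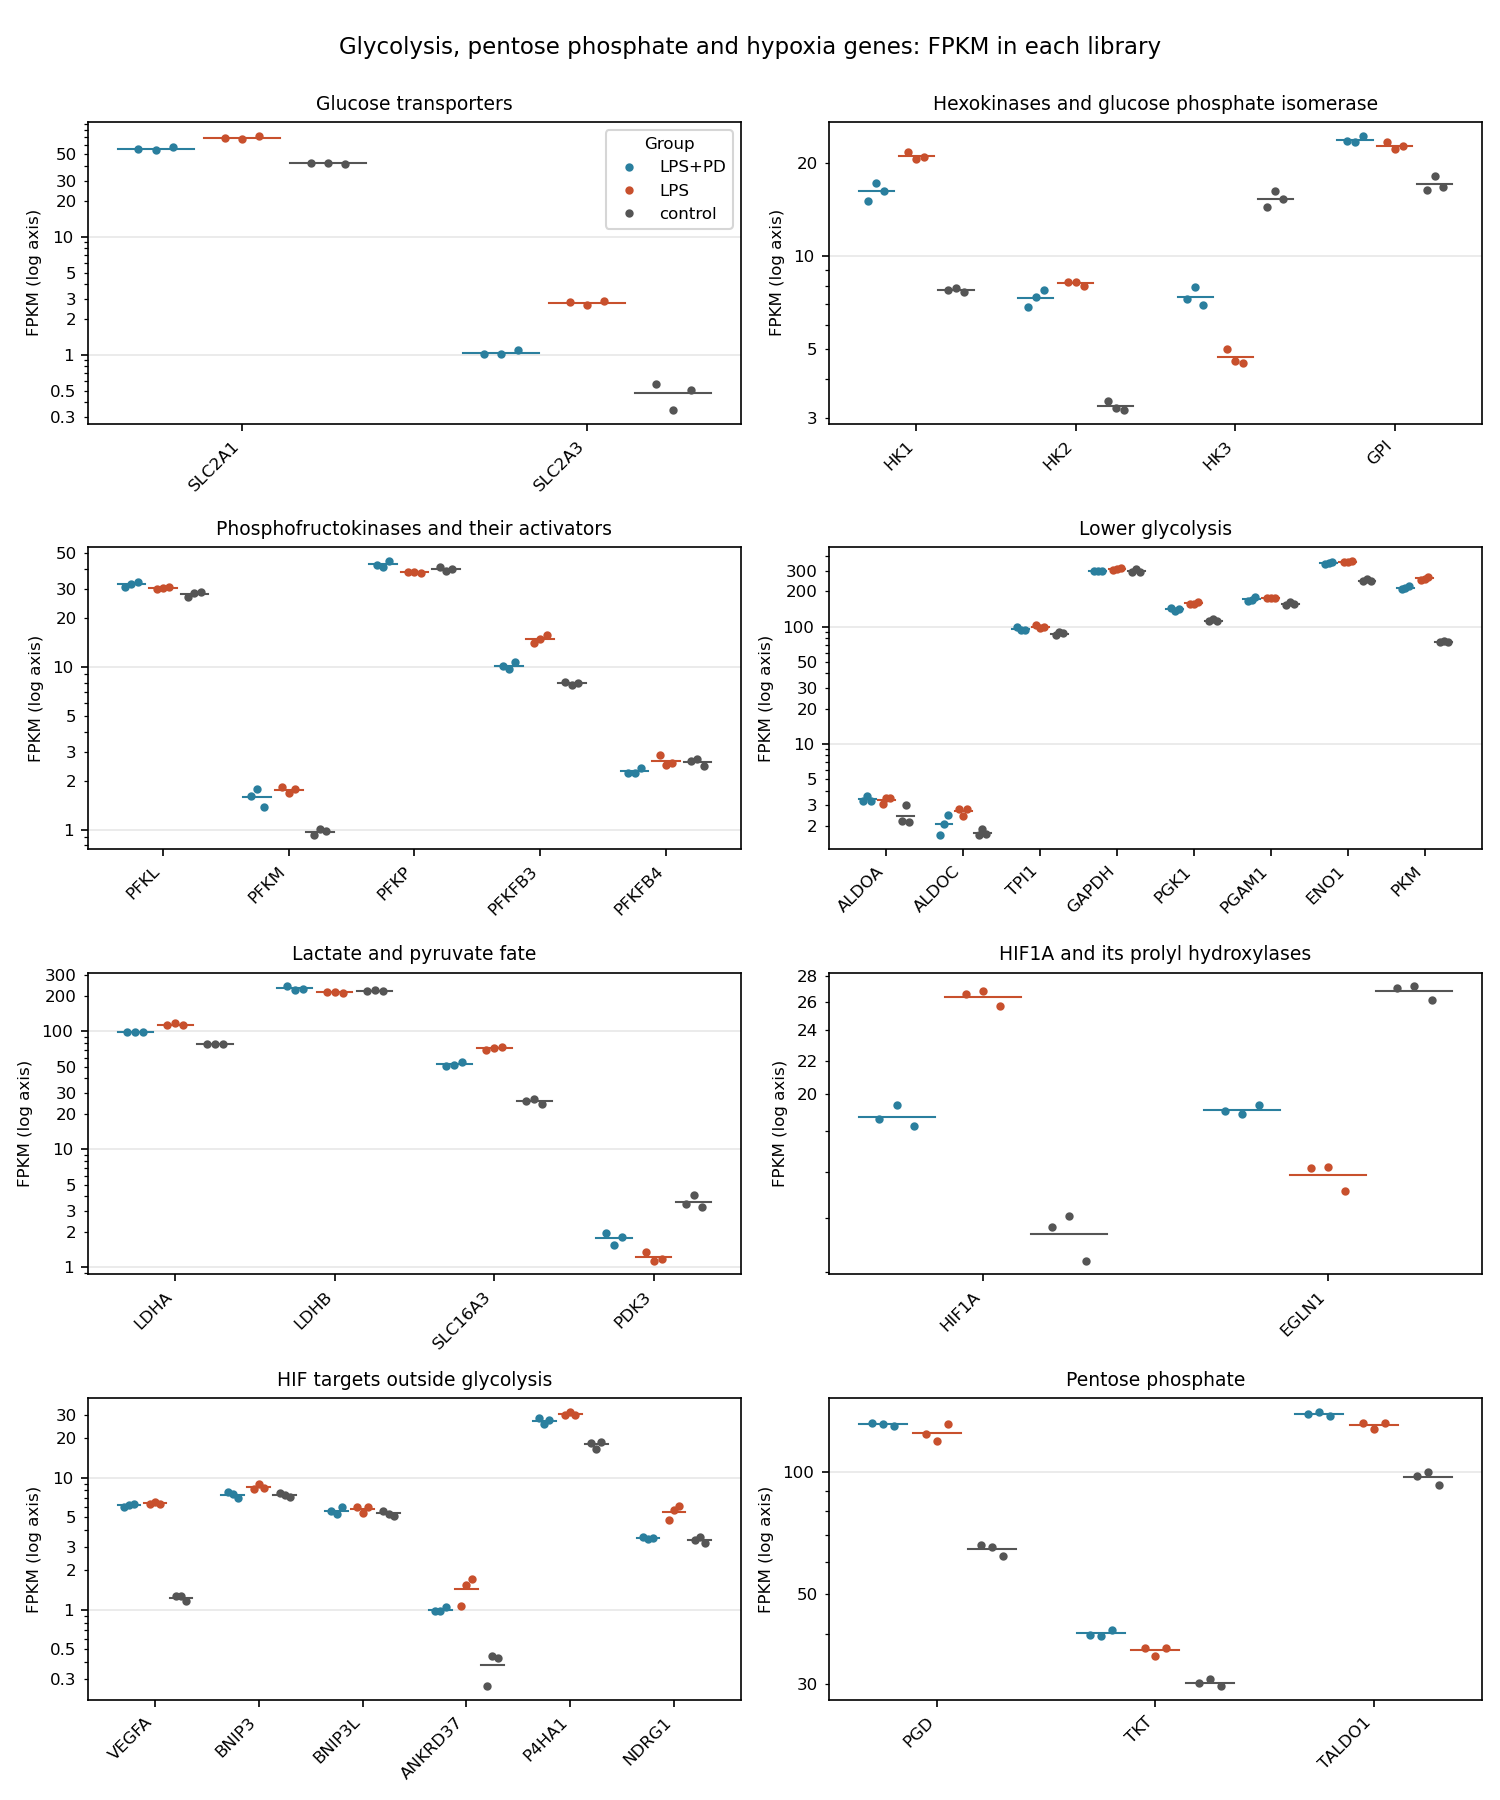
FPKM on log axes in each of the 9 libraries for the 34 tested genes by role, with points for libraries and bars for the mean of 3, in the order LPS+PD, LPS, control. SLC2A3, HK1, PFKFB3, PKM, SLC16A3 and HIF1A have their highest points in LPS and their lowest in control, whereas HK3, PDK3 and EGLN1 have their lowest points in LPS and their highest in control.

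In lower glycolysis PKM had the largest log2 fold change in LPS against control. PKM, the pyruvate kinase gene that makes the last step (chromosome 15, 72199029 to 72231822, minus strand), had 209.6, 213 and 221 FPKM in LPS+PD libraries, 252, 256 and 264 in LPS libraries and 73.8, 75.2 and 73.2 in control libraries. No library of one group reached into another, and the LPS+PD libraries lay nearer to LPS than to control. PKM fell by 0.26 ± 0.03 in LPS+PD against LPS (limma adjusted p = 9.02e-05), while its log2 fold change in LPS against control was 1.78 ± 0.03 (adjusted p = 4.06e-11). Against control, LPS+PD libraries kept 2.89 times the mean level. The table is per gene, so the splice forms of PKM, which differ in how the enzyme is regulated, are not told apart.

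PGK1, which makes the first ATP of the pathway, had 145, 137 and 141 FPKM in LPS+PD libraries, 155, 156 and 161 in LPS libraries and 112, 115 and 111 in control libraries. It fell by 0.16 ± 0.03 in LPS+PD against LPS (limma adjusted p = 0.00242) and rose by 0.48 ± 0.03 in LPS against control (adjusted p = 4.11e-07). ENO1, the enolase of most cells, was among the most abundant members, at 349 ± 5.34 FPKM in LPS+PD, 357 ± 4.49 in LPS and 247 ± 5.97 in control libraries (SD, n = 3 each). It rose by 0.53 ± 0.02 with LPS (adjusted p = 6.65e-08), and in LPS+PD against LPS its libraries overlapped (log2 fold change -0.03 ± 0.02, adjusted p = 0.349). PGAM1, the phosphoglycerate mutase, averaged 172 FPKM in LPS+PD, 175 in LPS and 156 in control libraries. TPI1, the triose phosphate isomerase, averaged 95.6 FPKM in LPS+PD, 100.1 in LPS and 87.1 in control libraries. Both rose slightly with LPS, PGAM1 by 0.17 (adjusted p = 0.00168) and TPI1 by 0.20 (adjusted p = 0.000741), and neither was called in LPS+PD against LPS. With median-of-ratios scaling all of ENO1, TPI1 and PGAM1 were called lower in that comparison. Their log2 fold changes were then -0.12 (adjusted p = 0.0249), -0.15 (adjusted p = 0.0176) and -0.11 (adjusted p = 0.0464).

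GAPDH, the enzyme often used as a reference gene, had 296, 296 and 297 FPKM in LPS+PD libraries, 305, 311 and 318 in LPS libraries and 294.5, 309 and 289.9 in control libraries. It was not called in LPS+PD against LPS (log2 fold change -0.07 ± 0.03, limma adjusted p = 0.0787) or in LPS against control (0.06 ± 0.03, adjusted p = 0.0686). Without control replicate 2 both passed, with an adjusted p of 0.0352 (0.0126 to 0.218 over the alternatives) in LPS+PD against LPS and of 0.0109 (3.23e-05 to 0.221) in LPS against control. The aldolases, which split fructose bisphosphate, were low. ALDOC averaged 2.06 FPKM in LPS+PD, 2.66 in LPS and 1.76 in control libraries, with a rise of 0.41 ± 0.10 in LPS against control (adjusted p = 0.00418). In LPS+PD against LPS its log2 fold change was -0.27 ± 0.10 (adjusted p = 0.0581), and without LPS+PD replicate 9 it was -0.36 and passed (adjusted p = 0.0181, against up to 0.173 over the alternatives). ALDOC also passed there with median-of-ratios scaling (-0.326, adjusted p = 0.0290), quantile normalization (-0.312, adjusted p = 0.0333) and voom (-0.385, adjusted p = 0.0410). Without LPS+PD replicate 7 its log2 fold change in LPS+PD against control was 0.24 and passed (adjusted p = 0.0428), whereas with all libraries it was 0.15 ± 0.10 (adjusted p = 0.231). ALDOA averaged 3.37 FPKM on one row in LPS+PD, 3.33 in LPS and 2.45 in control libraries. On its second row it averaged 0.797 in LPS+PD, 0.620 in LPS and 0.926 in control libraries. The rows share 42.3% and 49.2% of their exon bases with each other or with a neighbour on the same strand, so fragments of one may be lost from the other and its level is uncertain. ENO2, the neuronal enolase, had 25 to 30 fragments in LPS+PD, 29 to 33 in LPS and 8 to 18 in control libraries, and did not reach the FPKM that the test required.

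The lactate exporter of the set rose with LPS and was lower with PD. SLC16A3 (MCT4, a lactate exporter, chromosome 17, 82228397 to 82261129, plus strand) had 51.3, 52.0 and 54.6 FPKM in LPS+PD libraries, 69.1, 73.0 and 74.5 in LPS libraries and 25.5, 26.8 and 24.5 in control libraries. The groups did not overlap. SLC16A3 fell by 0.45 ± 0.04 in LPS+PD against LPS (limma adjusted p = 4.55e-05), and its log2 fold change was 1.46 ± 0.04 in LPS against control (adjusted p = 2.21e-09). SLC16A1 (MCT1), which is outside the set, averaged 20.8 FPKM in LPS+PD, 19.7 in LPS and 18.3 in control libraries. SLC16A3 accordingly held 69.9% of the summed SLC16A1, SLC16A3 and SLC16A7 in LPS+PD, 76.9% in LPS and 56.4% in control libraries.

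LDHA, the lactate dehydrogenase subunit that favours lactate (chromosome 11, 18394388 to 18408425, plus strand), had 98.4, 99.4 and 99.7 FPKM in LPS+PD libraries, 114, 117 and 113 in LPS libraries and 78.6, 78.7 and 78.5 in control libraries. Its spread within each group was small, and the groups did not overlap. LDHA fell by 0.21 ± 0.02 in LPS+PD against LPS (limma adjusted p = 9.16e-05) and rose by 0.54 ± 0.02 in LPS against control (adjusted p = 2.40e-08). LDHB, the other subunit, had 241, 227 and 229.5 FPKM in LPS+PD libraries, 216, 217 and 212 in LPS libraries and 219, 224 and 220.3 in control libraries. The ratio of LDHA to LDHB was 0.427 ± 0.0162 in LPS+PD, 0.534 ± 0.00582 in LPS and 0.356 ± 0.00422 in control libraries. LDHB rose by 0.11 ± 0.03 in LPS+PD against LPS (adjusted p = 0.00986), which median-of-ratios scaling reduced to 0.03 (adjusted p = 0.543, the highest over the alternatives). Its rise of 0.07 in LPS+PD against control (adjusted p = 0.0497) was lost in 11 of 17 alternatives, including each left-out library except LPS+PD replicate 8 (adjusted p up to 0.143). LDHB shares 33.4% of its exon bases with an overlapping gene on the same strand, so its level is uncertain.

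The pyruvate dehydrogenase kinases limit the conversion of pyruvate to acetyl-CoA by switching off pyruvate dehydrogenase. PDK3 had 1.95, 1.53 and 1.81 FPKM in LPS+PD libraries, 1.34, 1.14 and 1.17 in LPS libraries and 3.43, 4.13 and 3.25 in control libraries. It fell by 1.05 ± 0.09 in LPS against control (limma adjusted p = 5.63e-06). Its rise of 0.32 ± 0.09 in LPS+PD against LPS (adjusted p = 0.0231) was lost in 7 of 16 alternatives, among them leaving out LPS replicate 5 or 6 or LPS+PD replicate 7 or 9 (log2 fold change 0.26 to 0.53, adjusted p up to 0.0796). PDK1, a known HIF1A target, stood just under the filter, with 0.635 to 0.843 FPKM in LPS+PD, 0.704 to 0.762 in LPS and 0.744 to 0.969 in control libraries, and its groups overlapped.

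HIF1A and EGLN1 moved in opposite directions. HIF1A (chromosome 14, 61695513 to 61748259, plus strand) had 18.6, 19.4 and 18.2 FPKM in LPS+PD libraries, 26.6, 26.9 and 25.7 in LPS libraries and 13.7, 14.1 and 12.4 in control libraries. EGLN1 (PHD2, the main oxygen sensor of the pathway, chromosome 1, 231363751 to 231425044, minus strand) had 19.1, 18.9 and 19.4 FPKM in LPS+PD libraries, 16.2, 16.2 and 15.1 in LPS libraries and 27.1, 27.2 and 26.2 in control libraries. The 3 groups of both genes were separate, with LPS+PD between the others. HIF1A fell by 0.48 ± 0.05 in LPS+PD against LPS (limma adjusted p = 5.73e-05) and rose by 0.93 ± 0.05 in LPS against control (adjusted p = 1.05e-07). EGLN1 rose by 0.26 ± 0.03 in LPS+PD against LPS (adjusted p = 0.000390) and fell by 0.72 ± 0.03 in LPS against control (adjusted p = 7.01e-08). The ratio of HIF1A to EGLN1 levels was 0.981 ± 0.0424 in LPS+PD, 1.67 ± 0.0280 in LPS and 0.498 ± 0.0226 in control libraries. EGLN1 held 89.9% of the summed prolyl hydroxylase FPKM in LPS+PD, 87.3% in LPS and 92.4% in control libraries, and EGLN3 had at most 3 fragments in any library. These are RNA levels, whereas the pathway acts mainly on HIF1A protein, which was not measured here.

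The HIF targets outside glycolysis differed from each other in how they stood with PD. VEGFA, the vascular growth factor (chromosome 6, 43770184 to 43786487, plus strand), had 6.01, 6.26 and 6.37 FPKM in LPS+PD libraries, 6.30, 6.56 and 6.34 in LPS libraries and 1.26, 1.27 and 1.16 in control libraries. VEGFA rose by 1.73 ± 0.05 in LPS against control (limma adjusted p = 1.26e-09), whereas its LPS+PD and LPS libraries overlapped (log2 fold change -0.04 ± 0.05, adjusted p = 0.566). NDRG1, a stress-induced gene, had 3.53, 3.41 and 3.46 FPKM in LPS+PD libraries, 4.79, 5.65 and 6.08 in LPS libraries and 3.37, 3.53 and 3.20 in control libraries. NDRG1 fell by 0.54 ± 0.07 in LPS+PD against LPS (adjusted p = 0.000409), and its LPS+PD and control libraries overlapped (log2 fold change 0.03 ± 0.07, adjusted p = 0.718). The difference between VEGFA and NDRG1 was not itself tested.

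P4HA1, a collagen prolyl hydroxylase, averaged 27.0 ± 1.49 FPKM in LPS+PD, 30.4 ± 0.924 in LPS and 17.9 ± 1.20 in control libraries (SD, n = 3 each) and rose by 0.73 ± 0.05 with LPS (limma adjusted p = 1.79e-06). Its fall of 0.17 ± 0.05 in LPS+PD against LPS (adjusted p = 0.0372) was lost in 8 of 17 alternatives, among them leaving out any 1 LPS library or LPS+PD replicate 8 or 9 (log2 fold change -0.25 to -0.13, adjusted p up to 0.125). BNIP3, which promotes the removal of mitochondria, averaged 7.42 FPKM in LPS+PD, 8.48 in LPS and 7.41 in control libraries. It fell by 0.17 ± 0.05 in LPS+PD against LPS (adjusted p = 0.0242), which was lost without LPS replicate 5 or LPS+PD replicate 8 or 9 (adjusted p up to 0.0878). Its rise of 0.17 ± 0.05 in LPS against control (adjusted p = 0.0127) was lost without LPS replicate 5 (adjusted p = 0.0505). Its relative BNIP3L stood at 5.63 FPKM in LPS+PD, 5.79 in LPS and 5.36 in control libraries and was called in none of the 3 comparisons. With median-of-ratios scaling BNIP3L was called higher in LPS against control (log2 fold change 0.21, adjusted p = 0.0107). ANKRD37 had 0.976, 0.982 and 1.04 FPKM in LPS+PD libraries, 1.08, 1.54 and 1.70 in LPS libraries and 0.264, 0.446 and 0.434 in control libraries. Its log2 fold change in LPS+PD against LPS was -0.28 ± 0.12 (adjusted p = 0.0918), and without LPS replicate 4 it was -0.39 (adjusted p = 0.0216). With quantile normalization it was -0.352 (adjusted p = 0.0463). ANKRD37 passed the filter through the libraries given LPS, and 35.2% of its exon bases overlap UFSP2 on the opposite strand, so its level is uncertain. ADM, the vasodilator adrenomedullin, had 3 to 12 fragments in LPS+PD, 14 to 17 in LPS and 0 to 1 in control libraries, where 3 fragments would be 0.0627 to 0.0706 FPKM, and it was not tested.

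**Figure D4:**
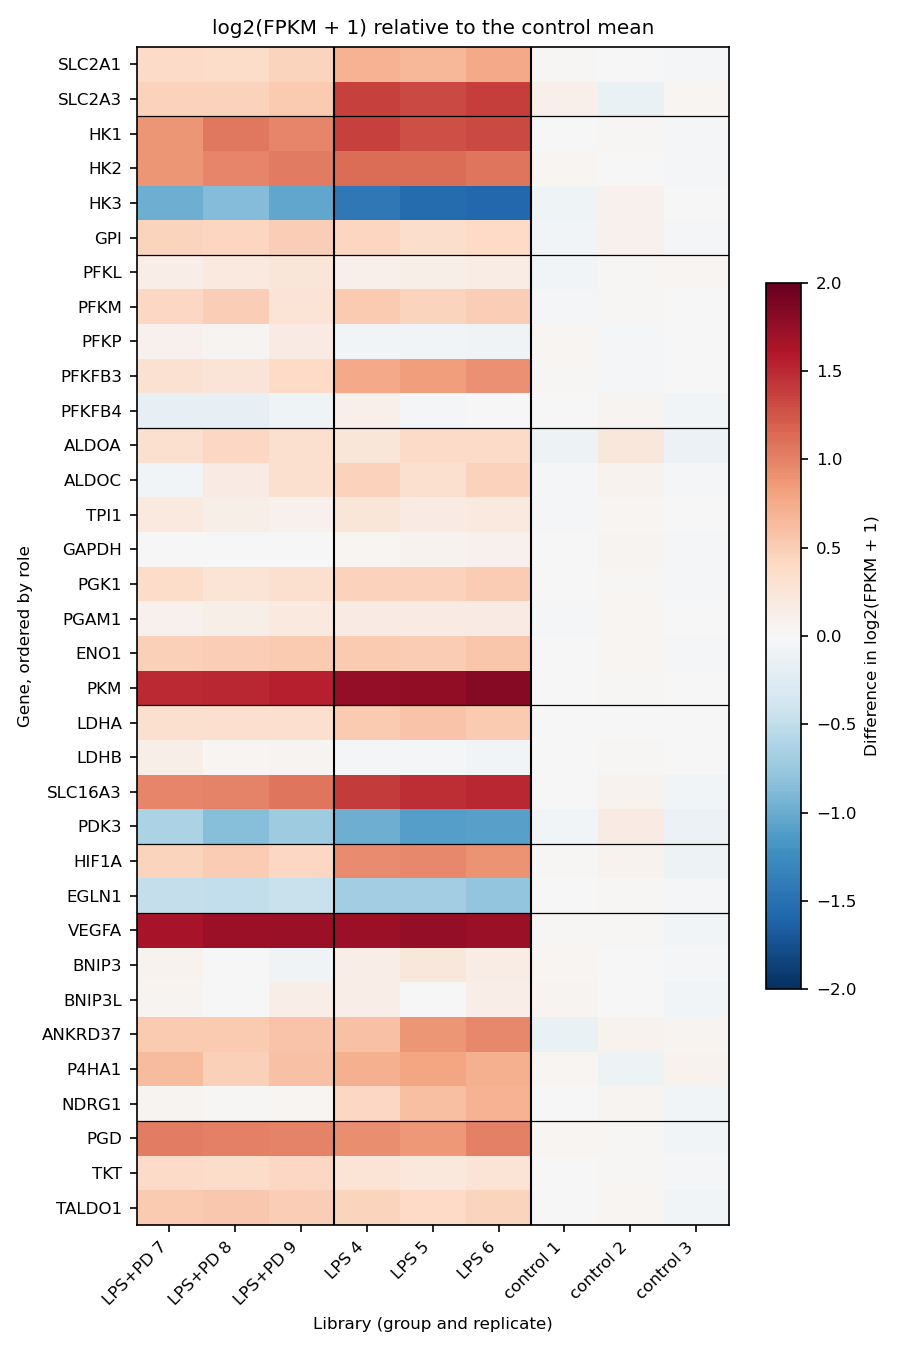
Difference of log2(FPKM + 1) from the control mean for each of the 34 tested genes (rows, by role) in each library (columns, LPS+PD 7 to 9, LPS 4 to 6 and control 1 to 3), from -2 in blue to 2 in red. PKM and VEGFA are deep red in all 6 LPS-treated libraries, HK3 and PDK3 are blue there, and NDRG1 is coloured in LPS libraries but near white in LPS+PD libraries.

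The pentose phosphate members rose with LPS, and none of them was lower with PD. PGD, the phosphogluconate dehydrogenase that yields NADPH (chromosome 1, 10398592 to 10420144, plus strand), had 132, 131 and 130.0 FPKM in LPS+PD libraries, 124, 119 and 131 in LPS libraries and 66.1, 65.4 and 62.2 in control libraries. It rose by 0.94 ± 0.04 in LPS against control (limma adjusted p = 1.97e-08), and its LPS+PD and LPS libraries overlapped (log2 fold change 0.07 ± 0.04, adjusted p = 0.164). LPS replicate 6 was the library within the LPS+PD range, and without it PGD passed in LPS+PD against LPS (adjusted p = 0.0467, against up to 0.863 over the alternatives). TKT, the transketolase that links the branch back to glycolysis, had 39.7, 39.6 and 40.9 FPKM in LPS+PD libraries, 36.8, 35.3 and 37.0 in LPS libraries and 30.3, 30.9 and 29.7 in control libraries. TALDO1, the transaldolase of the same link, had 139, 141 and 137 FPKM in LPS+PD libraries, 132, 128 and 132 in LPS libraries and 97.97, 99.9 and 93.1 in control libraries. Both genes had LPS+PD highest and control lowest, with no overlap.

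TKT rose by 0.14 ± 0.03 in LPS+PD against LPS (limma adjusted p = 0.00581) and by 0.25 ± 0.03 in LPS against control (adjusted p = 4.24e-05). TALDO1 rose by 0.09 ± 0.03 in LPS+PD against LPS (adjusted p = 0.0449) and by 0.43 ± 0.03 in LPS against control (adjusted p = 1.25e-06). With median-of-ratios scaling the log2 fold change in LPS+PD against LPS was 0.05 for TKT (adjusted p = 0.274) and 0.0047 for TALDO1 (adjusted p = 0.940). The TALDO1 call in that comparison was also lost without control replicate 1 or without any 1 LPS or LPS+PD library, where the log2 fold change was 0.07 to 0.10 and the adjusted p 0.0616 to 0.143. TKTL1, a transketolase-like gene outside the set, averaged 21.2 FPKM in LPS+PD, 13.6 in LPS and 29.2 in control libraries. TKT thus held 65.4% of the summed transketolase FPKM in LPS+PD, 72.7% in LPS and 50.9% in control libraries.

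As a share of the summed FPKM of all genes in the table, the members held 0.772% to 0.789% in LPS+PD, 0.818% to 0.828% in LPS and 0.585% to 0.599% in control libraries. The 3 ranges did not overlap, and the LPS+PD libraries lay nearer to LPS than to control.

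Genes of the same pathways outside the set were counted in the same way. Over all tested genes, 26.4% rose and 39.7% fell in LPS against control. The shares were 23.8% and 13.0% in LPS+PD against LPS, and 26.0% and 28.7% in LPS+PD against control. These shares are the background for each list below, and the lists were not followed through the alternatives. Of 26 tested genes of glycolysis and pyruvate metabolism, 10 rose and 10 fell in LPS against control, 14 rose and 4 fell in LPS+PD against LPS, and 10 rose and 8 fell in LPS+PD against control. SLC2A6 had the largest rise with LPS, by 3.54 ± 0.05 (limma adjusted p = 1.43e-11), and the largest fall in LPS+PD against LPS, by 0.27 ± 0.05 (adjusted p = 0.00165). FBP1, the fructose bisphosphatase that reverses glycolysis, had 0.906, 0.671 and 1.14 FPKM in LPS+PD libraries, 0.170, 0.184 and 0 in LPS libraries and 7.11, 6.25 and 5.74 in control libraries. The LPS values rest on 0 to 5 fragments, and FBP1 passed the filter through the control group, where it is high. FBP1 fell by 2.72 ± 0.12 in LPS against control (adjusted p = 3.67e-08) and rose by 0.77 ± 0.12 in LPS+PD against LPS (adjusted p = 0.000875). LDHD, the D-lactate dehydrogenase, fell the most in LPS+PD against control, by 1.97 ± 0.10 (adjusted p = 2.41e-07), with 0.965 FPKM in LPS+PD and 6.71 in control libraries, and it too passed the filter through control. The median log2 fold change of this list was -0.01 in LPS against control and 0.16 in LPS+PD against LPS, beside all-gene medians of -0.08 and 0.07.

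Of 9 other tested pentose phosphate genes, 3 rose and 5 fell in LPS against control, 4 rose and 0 fell in LPS+PD against LPS, and 4 rose and 4 fell in LPS+PD against control. PGLS, the phosphogluconolactonase, averaged 17.6 FPKM in LPS+PD, 14.0 in LPS and 31.1 in control libraries and fell by 1.11 ± 0.08 with LPS (limma adjusted p = 1.11e-06). TKTL1 had the largest rise in LPS+PD against LPS, by 0.60 ± 0.04 (adjusted p = 9.89e-06). PGLS and PGD, which make successive steps, thus moved in opposite directions, with PGLS lower and PGD higher in LPS than in control libraries. The median of this list was -0.19 in LPS against control and 0.14 in LPS+PD against LPS.

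Of 29 other tested HIF pathway and hypoxia genes, 10 rose and 13 fell in LPS against control, 8 rose and 6 fell in LPS+PD against LPS, and 6 rose and 13 fell in LPS+PD against control. BHLHE40, a transcription factor induced by low oxygen, had 3.67, 4.38 and 4.21 FPKM in LPS+PD libraries, 10.5, 12.9 and 13.0 in LPS libraries and 1.63, 1.78 and 1.88 in control libraries. It rose by 2.25 ± 0.09 in LPS against control (limma adjusted p = 1.50e-08) and fell by 1.37 ± 0.09 in LPS+PD against LPS (adjusted p = 3.73e-06). EPAS1, the other main HIF subunit regulated by oxygen, had 5.93, 6.16 and 6.18 FPKM in LPS+PD libraries, 3.84, 3.72 and 3.36 in LPS libraries and 14.8, 14.3 and 13.7 in control libraries. EPAS1 fell by 1.72 ± 0.05 in LPS against control (adjusted p = 2.00e-09) and rose by 0.61 ± 0.05 in LPS+PD against LPS (adjusted p = 1.68e-05), opposite to HIF1A in both. The median of this list was -0.12 in LPS against control and -0.02 in LPS+PD against LPS.

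Of 12 tested regulators of glycolysis, 3 rose and 6 fell in LPS against control, 5 rose and 1 fell in LPS+PD against LPS, and 5 rose and 4 fell in LPS+PD against control. TXNIP, which restrains glucose uptake, had 93.1, 94.3 and 90.5 FPKM in LPS+PD libraries, 79.5, 80.4 and 77.8 in LPS libraries and 215, 211 and 211 in control libraries. It fell by 1.41 ± 0.02 in LPS against control (limma adjusted p = 7.86e-11) and rose by 0.22 ± 0.02 in LPS+PD against LPS (adjusted p = 0.000117). MLX, the partner of the glucose-sensing MondoA and ChREBP proteins, rose by 0.46 ± 0.03 in LPS against control (adjusted p = 1.99e-06) and fell by 0.11 ± 0.03 in LPS+PD against LPS (adjusted p = 0.0285). MTOR had the largest rise in LPS+PD against control, by 0.37 ± 0.04 (adjusted p = 3.01e-05). The median of this list was -0.10 in LPS against control and 0.09 in LPS+PD against LPS.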

How the data were processed

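The authors deposited 1 table of FPKM values for 34643 Ensembl genes in 9 libraries, 1 column per library, with gene coordinates. Per the submitters' processing notes, the build was GRCh38 and the tools included HISAT2, StringTie, FastQC and bcl2fastq, with no version named. The sources used here give neither the rule for assigning fragments to genes nor the handling of strand and of reads fitting several genes. Multiplied by the GENCODE v29 exon length of each gene, 97.15% to 97.72% of the deposited FPKM values came out as whole fragments within a tolerance of 0.05, which gave the depths. Low FPKM rest on few fragments, and floors of 3 fragments cover counting error only.

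Groups came from the sample titles. Differences were tested on log2(FPKM + 1) in limma (version 3.58.1, R 4.3.3), with an intensity trend, in 1 model of the 3 group means over all 9 libraries. Genes had to reach an FPKM of 1 in 3 or more libraries, which left 13692. Calls were made below a Benjamini-Hochberg adjusted p of 0.05 over all of these, within each comparison. Errors of fold changes are standard errors. The scale understates changes of low genes. The fit was tested on simulated data in which few genes changed, all of them upwards in LPS. Changes in the real data were far wider, so that run does not show how well these calls hold.

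All 38 members are described. From 4 further lists (other glycolysis and pyruvate genes, other pentose phosphate genes, other HIF pathway and hypoxia genes, regulators of glycolysis), the called gene with the largest rise and the one with the largest fall in each comparison were named, given a mean FPKM of at least 5 in 1 group, and other isozymes were named for shares. Some items of these and of the marker lists are not reported here. The members and lists were chosen with earlier results of these data known. The 17 alternatives covered the pseudocount (0.1), the filter (none, or an FPKM of at least 5), median-of-ratios scaling, quantile normalization, no intensity trend, only the groups compared, limma voom on the recovered fragments, and each library left out.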

Additional observations from a re-analysis of the deposited data

How the results depend on the processing

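Over 1710 member values under alternatives, 1598 kept their direction and their side of the threshold, 68 lost the call, 23 gained it and 21 changed sign. Of the called members, 27 of 29 in LPS against control, 12 of 20 in LPS+PD against LPS and 25 of 28 in LPS+PD against control were called the same way in every alternative that tested them. The filter of an FPKM of at least 5 removed low members such as SLC2A3 and NDRG1, which therefore had 16 alternatives. Median-of-ratios scaling gave an all-gene median of 0.02 in LPS against control, where it was -0.08, and left members higher in LPS+PD against LPS at 2 and lower at 19, with 1929 genes higher and 2582 lower overall. It also gave 4814 genes higher and 4122 lower in LPS against control, and 4099 and 3402 in LPS+PD against control. With an FPKM of at least 5 required, 7807 genes were tested and 3295 were lower in LPS against control and 2445 in LPS+PD against control. Leaving out 1 library gave 5 to 7 members higher and 10 to 13 lower in LPS+PD against LPS, 25 to 27 higher in LPS against control and 23 to 25 higher in LPS+PD against control. Sign changes with median-of-ratios scaling were PFKP 0.069 and LDHB 0.091 in LPS against control, GPI -0.022, PFKL -0.016, PGD -0.012 and ALDOA -0.050 in LPS+PD against LPS, and GAPDH 0.043 in LPS+PD against control. With quantile normalization they were ALDOA -0.025 and ENO1 0.0075 in LPS+PD against LPS, and GAPDH 0.149 and BNIP3 -0.0083 in LPS+PD against control, where BNIP3 was -0.0014 with voom. Over the left-out libraries the sign changed for PFKFB4 in LPS against control (-0.022 to 0.049), for ALDOA (-0.029 to 0.040) and BNIP3L (-0.075 to 5.4e-05) in LPS+PD against LPS, and for GAPDH (-0.025 to 0.021) and BNIP3 (-0.034 to 0.039) in LPS+PD against control. Of the values that changed sign, LDHB under median-of-ratios (adjusted p = 0.0314) and GAPDH under quantile normalization (adjusted p = 0.000298) passed the test, and the causes were not tested. No paired analysis was possible because the replicate numbers run from 1 to 9 and no number is shared between groups.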
